A study of Mus musculus with 12 samples.

Results

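The question put to the data was whether a short hairpin RNA (shRNA) against TRAX, delivered by an adeno-associated virus (AAV), changed striatal gene expression differently in R6/2 and in wild-type (WT) mice. All 12 libraries of the series enter it, 3 in each of 4 groups. R6/2-T mice carried the R6/2 transgene and received the shTRAX virus, and R6/2-C mice carried the transgene and received the control virus. WT-T and WT-C mice lacked the transgene and received the shTRAX and the control virus. All mice were of the strain given as B6CBAFI/J, were injected in the striatum of both hemispheres at 5 weeks of age and were 10.5 weeks old when the striatum was taken. The R6/2 line, B6CBA-Tg(HDexon1)62Gpb/3J, expresses exon 1 of human huntingtin with a long CAG repeat in all tissues and models Huntington's disease. Whole striatum was sequenced, so cells reached and not reached by the virus are mixed, and the labels name neither the promoter of the shRNA nor the control sequence. The difference described below, called the interaction, is the log2 change of R6/2-T over R6/2-C minus that of WT-T over WT-C, so that a positive value means a higher shRNA change in R6/2. It was computed for all 23453 genes, of 51912 in the deposited table, that passed the expression filter.

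TRAX, encoded by Tsnax, binds translin (Tsn), and the pair forms an RNA-cleaving complex known for clearing passenger strands during RNA interference and for degrading small RNAs. TRAX also binds an adenosine receptor encoded by Adora2a, which medium spiny neurons of the indirect pathway carry. Medium spiny neurons are the projection cells of the striatum, and in Huntington's disease models their characteristic genes and their activity-dependent genes are known to decline early. Immediate-early genes are those that neurons transcribe within minutes of synaptic activity, many of them through the transcription factors CREB and SRF.

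Library totals ran from 131783370 to 229332386 StringTie counts, or 32206223 to 57308823 fragments as recovered from a second set of deposited values. Striatal markers were present in every library, with Ppp1r1b at 454 to 2237 CPM (a count corrected for library size) and Drd1 at 95.5 to 236 CPM, and the cortical marker Neurod6 at 0.684 to 4.35 CPM. Choroid plexus genes summed to 2039 to 3780 CPM in R6/2-T, 355 to 3360 in R6/2-C, 400 to 2030 in WT-T and 410 to 744 in WT-C. R6/2-C 2 held the highest of its group, and the median interaction of these genes, −0.31, lay between −0.80 and 1.93 as single libraries were left out. The labels do not state that the libraries of a group are separate animals, so the tests reflect library-to-library spread, which may be technical.

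The targeted gene was low in all shRNA libraries of both genotypes. Tsnax (GRCm38 chromosome 8, 125012997 to 125034192, plus strand) stood at 23.8% of its R6/2-C mean in R6/2-T and at 20.02% of its WT-C mean in WT-T. It had 44.7, 39.99 and 47.0 CPM in R6/2-T, against 197, 168 and 189 CPM in R6/2-C, and 32.9, 27.6 and 33.6 CPM in WT-T, against 151, 152 and 167 CPM in WT-C. Its interaction was 0.25 (SE 0.15, 95% interval −0.07 to 0.57, edgeR adjusted p = 0.52). Tsn, the partner of TRAX, had an interaction of 0.12 (SE 0.13). Disc1, the neighbour of Tsnax on chromosome 8, had −0.18 (SE 0.34).

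Of the 23453 genes, edgeR's quasi-likelihood test called 1 in the interaction at an adjusted p under 0.05, or 0.00426%. At an unadjusted p under 0.05 there were 2751 genes (11.7%), of which 1485 (6.33%) were higher and 1266 (5.4%) lower. In recovered fragments 0 of 18776 genes were called, against 2735 (14.6%) at an unadjusted p under 0.05. DESeq2 called 190 genes (0.81%), 133 higher (0.567%) and 57 lower, and 189 of them had an edgeR unadjusted p under 0.05. Among the 18755 genes tested in both sources, 1915 had an unadjusted p under 0.05 in both, which is 77.0% of the 2488 from StringTie counts and 70.1% of the 2732 from fragments. Of these, 1913 had the same sign.

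Taken apart by genotype, the shRNA change called 16 genes in R6/2 (0.0682%), 12 higher (0.0512%) and 4 lower (0.0171%), and 1 gene, Tsnax, in WT (0.00426%). In fragments the counts were 507 in R6/2 (2.7%) and 4 in WT (0.0213%). Of the 16 genes called in R6/2, 10 had the same sign in WT and 13 had an unadjusted interaction p under 0.05. Of the 507, 338 had the same sign in WT and 383 had an unadjusted interaction p under 0.05, but none was called in the interaction by edgeR. Both sets were picked on the R6/2 change, which enters the interaction, so their many small interaction p-values are in part built in. Log2 changes were spread more widely in R6/2 (SD 0.450) than in WT (SD 0.271) over the 14861 genes whose mean log2 CPM was 1 or more. The changes in the 2 genotypes, which share no library, had a Pearson r of 0.19 across those genes, which are not independent replicates and share GC content and length. Opposite signs in R6/2 and WT were found for 46.4% of those genes.

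**Figure D1:**
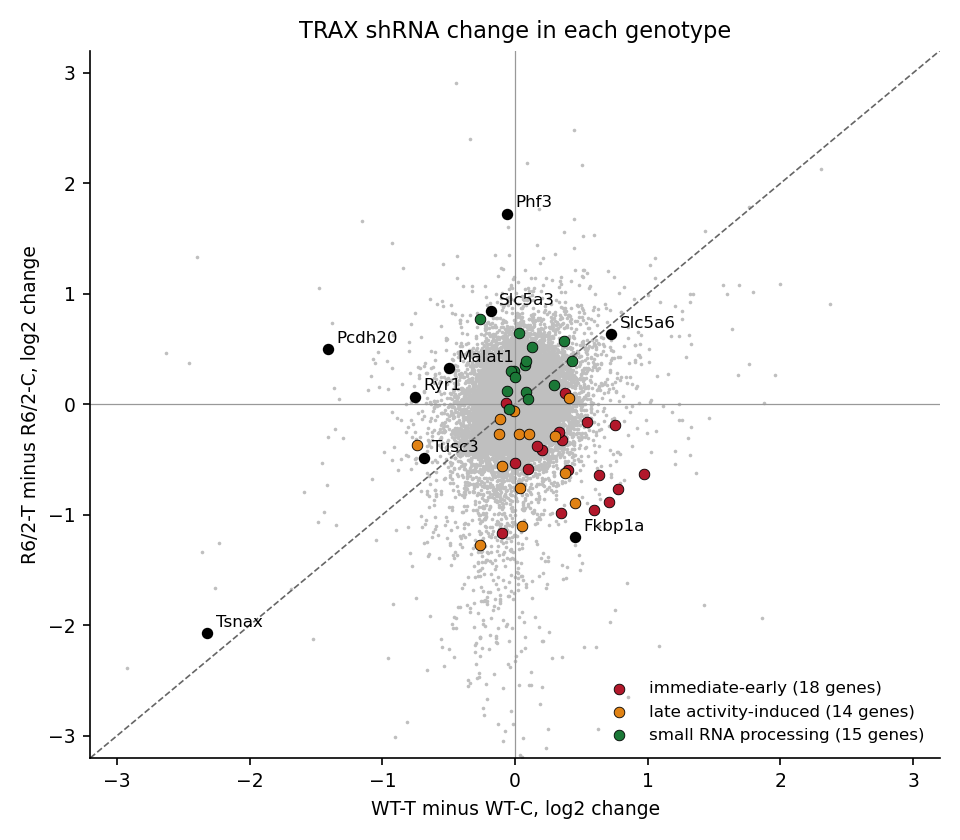
Log2 change with the TRAX shRNA in R6/2 (vertical axis) against that in WT (horizontal axis) for 14861 genes whose mean log2 CPM was 1 or more, 20 of them outside the axes; coloured points are members of 3 gene lists, black points are named genes and the dashed line marks equal changes. Tsnax lies near the line, while most immediate-early genes lie to the lower right, with lower levels in R6/2-T than in R6/2-C and higher levels in WT-T than in WT-C.

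The called gene was Phf3 (ENSMUSG00000048874, GRCm38 chromosome 1, 30802339 to 30873921, minus strand), whose protein binds RNA polymerase II and regulates transcript elongation and stability. In StringTie counts it had 164, 153 and 147 CPM in R6/2-T and 41.2, 55.6 and 43.5 CPM in R6/2-C. It had 43.1, 44.2 and 36.7 CPM in WT-T and 41.3, 38.0 and 50.1 CPM in WT-C. The R6/2-T libraries thus stood above all others, and the other 3 groups overlapped. The interaction was 1.79 (SE 0.19, 95% interval 1.36 to 2.21, edgeR adjusted p = 0.0302). In recovered fragments Phf3 had 185, 172 and 164 CPM in R6/2-T, against 117, 152 and 121 CPM in R6/2-C, and 116, 120 and 123 CPM in WT-T, against 127, 110 and 124 CPM in WT-C. There the interaction was 0.43 (adjusted p = 0.263). The call was kept when R6/2-C 2, WT-C 1 or WT-T 1 was left out and lost when any of the other 9 libraries was, with interactions of 1.66 to 1.93. StringTie gave 3.62 to 3.65 counts for each Phf3 fragment in R6/2-T and 1.20 to 1.64 in the other 9 libraries, where the median over genes was 4.04 to 4.10 in each library, so the 2 sources assigned reads of this gene differently by group.

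The next genes by interaction p were not called in StringTie counts, and they divide by whether the second source gave a like value. Slc5a3, the sodium-coupled inositol transporter, had 57.7, 58.3 and 61.6 CPM in R6/2-T, against 28.1, 36.5 and 34.2 CPM in R6/2-C. It had 35.9, 37.3 and 32.4 CPM in WT-T, against 43.2, 34.8 and 41.9 CPM in WT-C. R6/2-T lay above every other library, and Slc5a3 rose with the shRNA in R6/2 (log2 0.84, edgeR adjusted p = 0.0401) with an interaction of 1.03 (SE 0.16, adjusted p = 0.20) that was 0.97 in fragments. The bicarbonate transporter gene Slc4a7 had an interaction of 0.75 and 0.72 in fragments. Gfpt1, the rate-limiting enzyme of hexosamine synthesis, had 0.52 and 0.50 in fragments. The kinase gene Wnk1, which controls cation-chloride cotransporters, had 0.78 and 0.62 in fragments, and Ttc14 had 0.79 and 0.55.

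Other leading genes had a large interaction in StringTie counts alone. Fkbp1a, which encodes the FKBP12 protein that binds calcium release channels, had 163, 168 and 173 CPM in R6/2-T, against 418, 356 and 385 CPM in R6/2-C. It had 365, 364 and 425 CPM in WT-T, against 378, 204 and 261 CPM in WT-C. Fkbp1a fell with the shRNA in R6/2 (log2 −1.20, edgeR adjusted p = 0.0492), and its interaction was −1.65 (SE 0.26) in StringTie counts and −0.30 in fragments. Pcdh20, a protocadherin, had interactions of 1.91 and 0.06 in StringTie counts and fragments, Btbd6, a ubiquitin ligase adaptor, −3.79 and −0.36, and Tfdp2, a partner of E2F factors, 2.39 and 0.57. The molybdenum cofactor gene Mocs1 had 1.23 in StringTie counts and −0.22 in fragments, and the membrane skeleton gene Epb41 had 1.15 and 0.51.

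**Figure D2:**
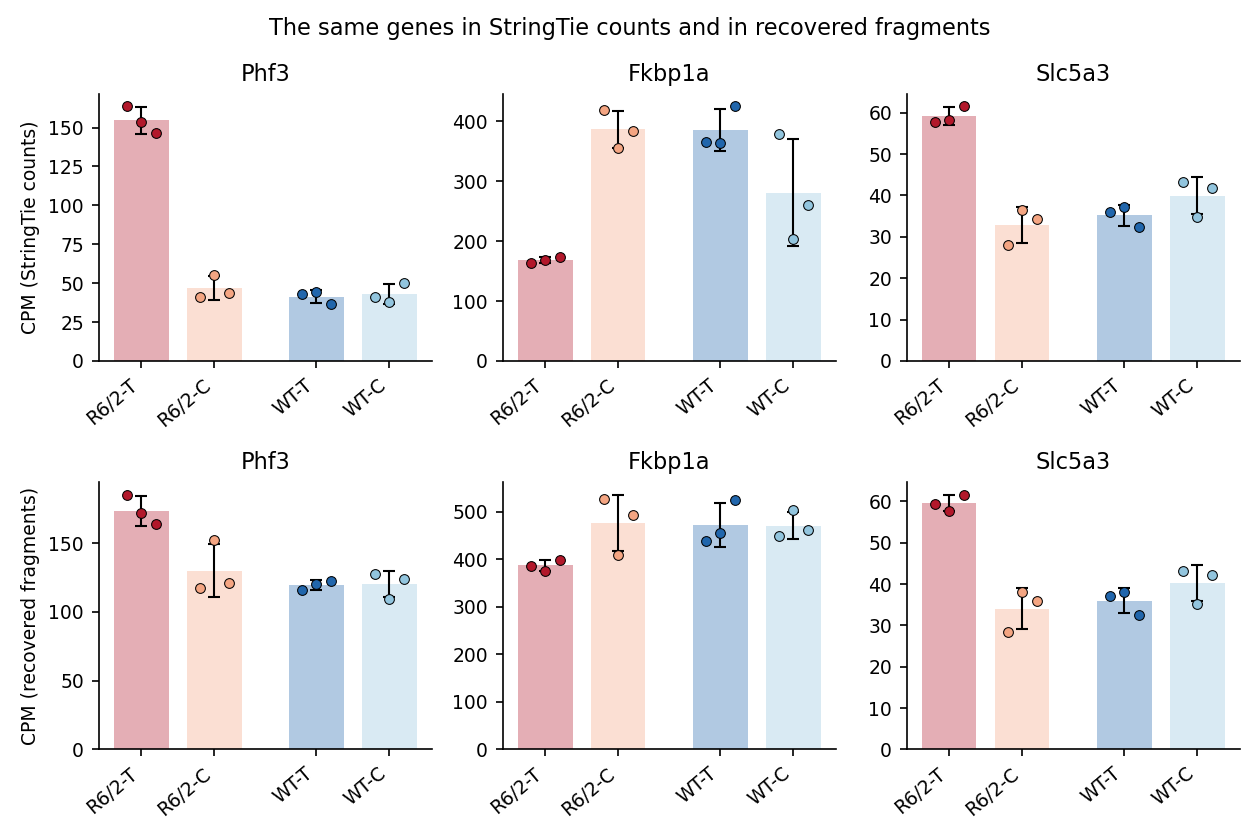
CPM of Phf3, Fkbp1a and Slc5a3 in each library (points), with the mean (bar) and SD (error bar) of each group of 3, in StringTie counts (top) and in recovered fragments (bottom). R6/2-T stands apart from the other groups for all 3 genes in StringTie counts, and in fragments the interaction shrinks to 0.43 for Phf3 and −0.30 for Fkbp1a while it stays at 0.97 for Slc5a3.

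Most immediate-early genes had a negative interaction, with values below 0 for the shRNA in R6/2 and above 0 in WT. All 18 genes of the list were tested. Their median interaction was −0.82, against −0.04 for all genes, made up of a median shRNA change of −0.56 in R6/2 and 0.36 in WT. The interaction was negative for 17 of 18, against 12642 of all 23453 genes. Within R6/2, 6 of 18 were lower in R6/2-T at an unadjusted p under 0.05, as were 2178 of all 23453 genes. Within WT, 6 of 18 were higher in WT-T, as were 793 of all genes. None went the other way in either genotype. The summed level of the list overlapped in R6/2, at 568 to 729 CPM in R6/2-T and 596 to 1069 CPM in R6/2-C, and not in WT, at 2362 to 2611 CPM in WT-T and 1662 to 1851 CPM in WT-C. Markers of cortical excitatory neurons had medians of the same signs, −0.24 in R6/2 and 0.30 in WT with an interaction of −0.73, negative for 7 of 10, with 1 lower and 1 higher at an unadjusted p under 0.05. Their summed level was 126 to 132 CPM in R6/2-T, 124.5 to 181 in R6/2-C, 87.7 to 168 in WT-T and 93.0 to 167 in WT-C. Neurod2 had an interaction of −2.55 (SE 0.998). The part of these cortical markers in the result was not tested. Of the 18 immediate-early genes, 11 were lower and 0 higher in the interaction at an unadjusted p under 0.05, where 5.4% of all genes were lower. EdgeR called none of these 18 genes. DESeq2 called 2 of them lower, Junb (adjusted p = 0.00307) and Egr4 (adjusted p = 0.0195), where it called 0.243% of all genes lower. In fragments the immediate-early median was −0.88, with 13 lower at an unadjusted p under 0.05, where 6.46% of all genes were.

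The 250 bases before the start are shown for the 4 members with the smallest interaction p among those with a RefSeq window, to show a short sequence that CREB is known to bind and that most of the windows hold. Such windows, on GRCm38.p6, were found for 14 of the 18 genes, some with several starts. Capitals mark TGACG, the core of the cAMP response element (CRE), or CGTCA on the other strand, and in Dusp1 also the whole element TGACGTCA, which contains 2 overlapping cores. The windows are chr8:84978749-84978998 (minus strand) for Junb, chr6:85513590-85513839 (minus strand) for Egr4, chr4:48045055-48045304 (plus strand) for Nr4a3 and chr17:26508473-26508722 (minus strand) for Dusp1, each written 5′ to 3′.
Junb: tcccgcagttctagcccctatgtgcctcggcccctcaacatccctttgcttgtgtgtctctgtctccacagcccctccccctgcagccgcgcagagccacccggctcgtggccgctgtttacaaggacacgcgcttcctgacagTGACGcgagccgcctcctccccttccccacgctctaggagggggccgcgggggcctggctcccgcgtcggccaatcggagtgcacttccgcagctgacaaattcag
Egr4: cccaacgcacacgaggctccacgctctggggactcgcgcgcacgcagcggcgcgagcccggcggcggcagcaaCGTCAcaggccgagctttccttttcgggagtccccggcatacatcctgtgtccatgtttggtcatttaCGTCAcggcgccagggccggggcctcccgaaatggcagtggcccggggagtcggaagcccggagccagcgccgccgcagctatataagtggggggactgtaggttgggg
Nr4a3: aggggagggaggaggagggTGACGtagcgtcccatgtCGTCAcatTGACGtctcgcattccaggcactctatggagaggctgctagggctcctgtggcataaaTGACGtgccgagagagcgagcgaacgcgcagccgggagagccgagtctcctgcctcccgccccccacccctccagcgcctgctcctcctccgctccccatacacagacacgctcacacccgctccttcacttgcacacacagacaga
Dusp1: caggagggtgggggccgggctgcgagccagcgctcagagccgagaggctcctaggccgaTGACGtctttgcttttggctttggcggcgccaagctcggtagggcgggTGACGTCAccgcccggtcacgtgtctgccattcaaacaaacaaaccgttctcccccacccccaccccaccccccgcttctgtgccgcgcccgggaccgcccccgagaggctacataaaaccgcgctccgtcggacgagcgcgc
The core was present in the windows of 12 of these 14 genes, or in 14 of 19 windows, and in 17.8% of 32851 windows of all genes. The whole CRE was present in 2 of the 14 genes, Btg2 and Dusp1, or in 2 of 19 windows, and in 1.55% of all windows. The CArG box, the site of SRF, was present in 4 of 19 windows, all of Egr2, and in 1.47% of all windows. The EGR site GCGNGGGCG, searched on both strands like the others, was present in 5 of the 14 genes, or in 5 of 19 windows. It was present in 4.7% of all windows. These matches describe letters in a short window and do not show binding.

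Junb, an AP-1 subunit, had 28.8, 31.1 and 37.1 CPM in R6/2-T, against 74.6, 43.9 and 46.7 CPM in R6/2-C. It had 173, 218 and 191 CPM in WT-T, against 87.3, 140 and 112 CPM in WT-C. The 2 R6/2 groups did not overlap, nor did the 2 WT groups, and the order was reversed, with an interaction of −1.55 (SE 0.31, edgeR adjusted p = 0.346). Egr4, a zinc-finger factor, had 18.96, 21.96 and 26.34 CPM in R6/2-T, against 64.6, 32.2 and 27.1 CPM in R6/2-C. It had 109, 149 and 136 CPM in WT-T, against 81.5, 83.5 and 76.3 CPM in WT-C, again without overlap in either genotype (interaction −1.59, SE 0.39). Dusp1, a phosphatase that ends MAP kinase signalling, had 17.9, 16.6 and 17.2 CPM in R6/2-T, against 24.7, 18.9 and 18.0 CPM in R6/2-C. It had 42.8, 44.8 and 54.8 CPM in WT-T, against 37.8, 37.5 and 37.6 CPM in WT-C, with an interaction of −0.59 (SE 0.18). Over all genes, 97 (0.414%) were lower in R6/2-T and higher in WT-T without overlap. Taken singly, R6/2-T lay wholly below R6/2-C for 12.9% of genes and above it for 14.1%, and WT-T lay below WT-C for 5.88% and above it for 5.28%.

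For Arc and Nr4a1 the groups were separate in WT and overlapped in R6/2. Arc, a regulator of synaptic AMPA receptors, had 52.4, 60.1 and 84.6 CPM in R6/2-T, against 97.8, 70.0 and 56.6 CPM in R6/2-C, which overlap. It had 439, 530 and 499 CPM in WT-T, against 298, 293 and 280 CPM in WT-C, with no overlap and an interaction of −0.94 (SE 0.29). Nr4a1, a nuclear receptor, had 58.4, 45.4 and 71.2 CPM in R6/2-T, against 158, 71.7 and 41.0 CPM in R6/2-C. It had 362, 355 and 286 CPM in WT-T, against 197, 126 and 189 CPM in WT-C. The R6/2-C libraries spread widely and the WT groups did not overlap (interaction −1.60, SE 0.57). Fos had an interaction of −0.99 (SE 0.39), Btg2 −0.71 (SE 0.27), Nr4a3 −1.55 (SE 0.43), Fosl2 −1.27 (SE 0.52), Ier2 −0.69 (SE 0.23) and Egr3 −0.53 (SE 0.24). In fragments Nr4a3 had −1.15 (edgeR unadjusted p = 0.184), while 13 of the 18 genes were lower there at an unadjusted p under 0.05. Npas4, a factor specific to neuronal activity, had −0.27 (SE 0.47). Homer1, a postsynaptic scaffold, was the exception in sign (0.08, SE 0.23).

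R6/2-C 1 had the highest value of its group for Junb, Egr4, Nr4a1 and Fos. R6/2-C 3 lay above all R6/2-T libraries for Junb and Egr4 and below them for Nr4a1, but among them by the median of the list. The median deviation of the list from the mean of 12 libraries was −0.905, −0.93 and −0.73 in R6/2-T, against −0.82 in R6/2-C 3. Without R6/2-C 1 the median interaction of the list was −0.70 and 8 members were lower at an unadjusted p under 0.05. Without R6/2-T 1 they were −0.72 and 7. Over all 12 libraries left out in turn the median lay between −0.997 and −0.70. The number lower over all genes, at an unadjusted p under 0.05, ran from 815 to 1667 across all alternative settings. In this bulk tissue, fewer cells of a type and less RNA per cell cannot be told apart.

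**Figure D3:**
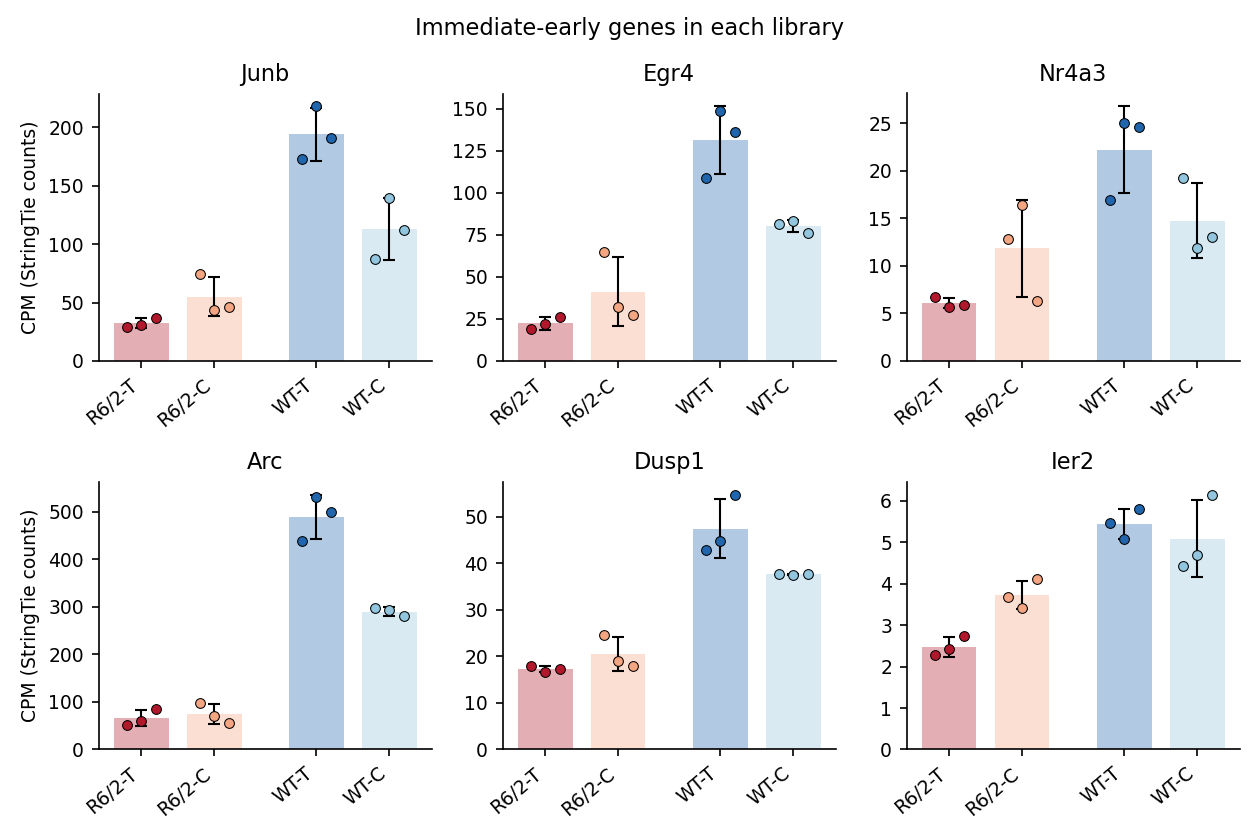
CPM in StringTie counts of the 6 immediate-early genes with the smallest interaction p, in each library (points), with the mean (bar) and SD (error bar) of each group of 3. Junb, Egr4 and Dusp1 are lower in R6/2-T than in R6/2-C and higher in WT-T than in WT-C with no overlap.

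The slower genes that follow neuronal activity gave a smaller difference with the same sign. Of 14 late activity-induced genes, 13 had a negative interaction, 6 were lower (all genes 5.4%) and 0 higher (all genes 6.33%) at an unadjusted p under 0.05, and the median was −0.41, from −0.33 in R6/2 and 0.04 in WT. Rgs2, a brake on G-protein signalling, had 60.5, 70.8 and 72.1 CPM in R6/2-T, against 122, 105 and 85.2 CPM in R6/2-C. It had 228, 191 and 179 CPM in WT-T, against 175, 127 and 160 CPM in WT-C. Neither pair overlapped, and the interaction was −0.996 (SE 0.22, edgeR adjusted p = 0.346, DESeq2 adjusted p = 0.0159). Nptx2, a secreted organiser of AMPA receptors at excitatory synapses, had 6.41, 5.10 and 5.32 CPM in R6/2-T, against 17.1, 11.8 and 11.8 CPM in R6/2-C. It had 27.74, 34.05 and 36.46 CPM in WT-T, against 33.1, 42.0 and 42.7 CPM in WT-C. Nptx2 fell with the shRNA in R6/2 (log2 −1.28, edgeR adjusted p = 0.0401), and its WT groups overlapped (interaction −1.01, SE 0.25). The neurotrophin gene Bdnf had an interaction of −1.35 (SE 0.42), the growth arrest gene Gadd45b −1.15 (SE 0.42), and the granule protein genes Vgf −0.80 (SE 0.34) and Scg2 −0.37 (SE 0.14). Inhba, the activin subunit gene, was the exception in sign, being lower with the shRNA without overlap in both genotypes (0.37, SE 0.23).

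Of 25 genes that mark medium spiny neurons, 17 had a negative interaction. At an unadjusted p under 0.05, 8 were lower and 1 higher, where 5.4% and 6.33% of all genes were, with a median of −0.28, from −0.25 in R6/2 and 0.03 in WT, and edgeR called none. For this medium spiny neuron list, the median was −0.18 with 6 lower without WT-T 3, and −0.34 with 13 lower without WT-T 1. Across all alternative settings, 815 to 1667 of all genes were lower. Ppp1r1b, which encodes the dopamine-regulated phosphatase inhibitor DARPP-32, had 454, 479 and 511 CPM in R6/2-T, against 898, 751 and 741 CPM in R6/2-C. It had 1395, 1823 and 2237 CPM in WT-T, against 1636, 2165 and 1621 CPM in WT-C. The R6/2 groups did not overlap and the WT groups did, with an interaction of −0.73 (SE 0.24, 95% interval −1.27 to −0.20). Hpca, the calcium sensor hippocalcin, had an interaction of −0.63 (SE 0.13) and of −0.41 in fragments. Hpca was lower in R6/2-T and higher in WT-T without overlap. DESeq2 called Hpca (adjusted p = 0.0053) and no other of the 25.

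Among indirect pathway genes, 3 of 8 were lower (all genes 5.4%) and 0 higher, with a median of −0.45. Without R6/2-C 1, 1 of the 8 was lower, and without WT-T 1, 5 were. Across all alternative settings, 815 to 1667 of all genes were lower. Adora2a, the adenosine receptor gene that TRAX is known to interact with, had 125, 150 and 144 CPM in R6/2-T, against 231, 195 and 187 CPM in R6/2-C. It had 366, 448 and 555 CPM in WT-T, against 345, 445 and 357 CPM in WT-C. Only the R6/2 groups did not overlap, and the interaction was −0.81 (SE 0.22, edgeR adjusted p = 0.353). Drd2 had an interaction of −0.56 (SE 0.21), the orphan receptor gene Gpr6 −0.59 (SE 0.24), and Penk, the enkephalin precursor, −0.24 (SE 0.39).

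Among direct pathway genes, 1 of 10 was lower (all genes 5.4%) and 0 higher, with a median of −0.26 that was −0.15 without WT-T 3 or R6/2-C 1. Without WT-T 1, 3 were lower, and with offsets for GC content and length 4 were. Those offsets gave 956 lower of all 23453 genes, and across all alternative settings 815 to 1667 were lower. The 1 lower without these changes was Pdyn, the dynorphin precursor. Pdyn had 34.05, 33.71 and 33.61 CPM in R6/2-T, against 59.9, 52.8 and 63.4 CPM in R6/2-C. It had 83.9, 96.4 and 104 CPM in WT-T, against 102, 107 and 117 CPM in WT-C. Pdyn fell with the shRNA in R6/2 (log2 −0.80, edgeR adjusted p = 0.0292), and its interaction of −0.60 (SE 0.14) was called by DESeq2 alone (adjusted p = 0.0491). Tac1, the substance P precursor, had −0.40 (SE 0.20) and Drd1 −0.24 (SE 0.15). Pde10a, the phosphodiesterase of these neurons, was scattered in StringTie counts, with 646, 267 and 620 CPM in R6/2-T, against 529, 779 and 179 CPM in R6/2-C, and an interaction of 0.29 (SE 0.72), and its StringTie counts per fragment ran from 1.57 to 4.14. In recovered fragments Pde10a had 647, 543 and 613 CPM in R6/2-T, against 530.3, 761 and 473 CPM in R6/2-C, and 1422, 1649 and 2078 CPM in WT-T, against 1710.0, 1652 and 1608 CPM in WT-C. There its groups overlapped in both genotypes, and the interaction was −0.02 (SE 0.25).

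Ryr1, a calcium release channel gene, was the member of the medium spiny neuron list with a higher value. It had 6.94, 10.0 and 7.84 CPM in R6/2-T, against 8.06, 9.09 and 6.49 CPM in R6/2-C. It had 45.6, 56.4 and 71.8 CPM in WT-T, against 101.8, 94.95 and 96.21 CPM in WT-C. The WT groups did not overlap and the R6/2 groups did, with an interaction of 0.82 (SE 0.26) and 0.75 in fragments. Of the other genes with the most extreme difference between R6/2-C and WT-C, a comparison that shares those libraries with the interaction, Fgf3 had −0.86 (SE 0.36), Wt1 0.25 (SE 0.55), Tmc3 0.22 (SE 0.30) and Mafa −0.08 (SE 0.26). Abhd11os, annotated as a transcribed pseudogene, had −0.39 (SE 0.43). The antisense gene Mccc1os (−0.81, SE 0.52) is uncertain, as the sources used here do not say whether counting used the strand, and Lrrtm4 had −1.02 in StringTie counts and 0.09 in fragments. The immunoglobulin segments Iglv3 and Igkv6-23, near copies of other segments, varied widely between libraries, and their standard errors of 2.75 and 1.70 are too large to give a direction.

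**Figure D4:**
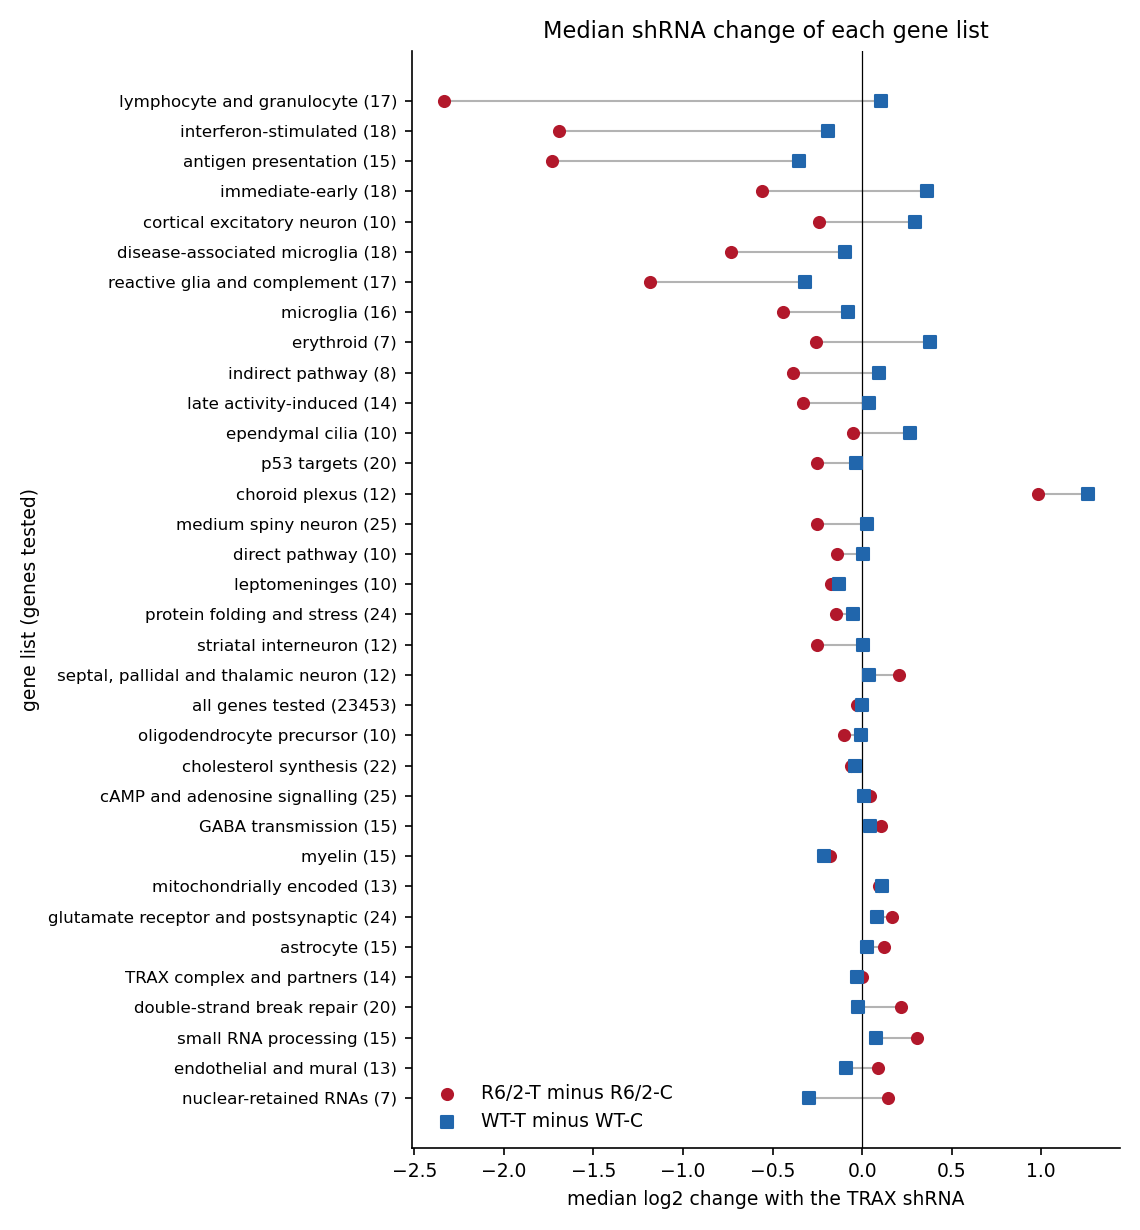
Median log2 change with the TRAX shRNA in R6/2 (circles) and in WT (squares) of each gene list and of all 23453 genes tested, ordered by the median interaction. The immediate-early list has a median of −0.56 in R6/2 and 0.36 in WT. Choroid plexus genes have medians of 0.98 and 1.26, but their summed levels overlap between shRNA and control libraries in both genotypes.

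Genes of small RNA processing, the pathway in which the TRAX and translin complex acts, had mostly positive interactions. Of 15 tested, 4 were higher and 0 lower at an unadjusted p under 0.05, where 6.33% of all genes were higher, with a median of 0.25, from 0.30 in R6/2 and 0.08 in WT. In small RNA processing, 8 were higher without R6/2-C 2 and 2 without WT-C 1. The number higher over all genes also moved, from 791 to 2254 across all alternative settings. Ago3, an Argonaute that carries guide RNAs, had 68.9, 66.2 and 68.0 CPM in R6/2-T, against 35.7, 50.5 and 32.6 CPM in R6/2-C. It had 39.1, 50.7 and 53.8 CPM in WT-T, against 67.1, 54.1 and 51.3 CPM in WT-C. The R6/2 groups did not overlap, and the interaction was 1.04 (SE 0.24, edgeR adjusted p = 0.346, DESeq2 adjusted p = 0.0246). Xpo5, which exports microRNA precursors from the nucleus, had 0.33 (SE 0.11), the microRNA-cutting enzyme gene Drosha 0.31 (SE 0.12), and the silencing factor gene Tnrc6b 0.61 (SE 0.25). Dicer1 had 0.28 (SE 0.17). Ago1 and Tnrc6c were higher with the shRNA without overlap in both genotypes, with interactions of 0.21 (SE 0.20) and −0.04 (SE 0.23).

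In a list of the TRAX complex and its partners, which includes Tsnax itself, 3 of 14 were higher and 1 lower. Of all genes 6.33% were higher and 5.4% lower. With offsets for GC content and length the list had 1 higher and 0 lower, against 1006 and 956 of all 23453 genes. Gsk3b, a kinase that associates with TRAX, had 354, 335 and 331 CPM in R6/2-T, against 244, 289 and 269 CPM in R6/2-C. It had 202, 245 and 291 CPM in WT-T, against 332, 308 and 280 CPM in WT-C. The R6/2 groups did not overlap and the interaction was 0.66 (SE 0.18), while its paralogue Gsk3a had −0.33 (SE 0.13). Double-strand break repair is a pathway in which TRAX is known to take part with ATM. Its genes were higher in 4 of 20 cases (all genes 6.33%) and lower in 0, with a median of 0.23. Without R6/2-C 2, 8 were higher, and the number higher over all genes ran from 791 to 2254 across all alternative settings. The 4 higher with all libraries were Prkdc, the DNA-dependent kinase (0.71, SE 0.17), Atr (0.61, SE 0.18), Mdc1 (0.46, SE 0.16) and Trp53bp1 (0.33, SE 0.14). Atm had 0.45 (SE 0.23). The interaction was negative for 3 of the 20, among them H2afx (−0.945, SE 0.44, edgeR unadjusted p = 0.0538). Of 24 glutamate receptor and postsynaptic genes 5 were higher (all genes 6.33%) and 0 lower, with a median of 0.09 that was −0.02 without WT-T 1 and 0.24 without WT-T 3. For this glutamate receptor and postsynaptic list, 2 were higher without WT-C 1. The NMDA receptor subunit gene Grin2a had 127, 113 and 122 CPM in R6/2-T, against 67.8, 93.1 and 61.4 CPM in R6/2-C. It had 73.6, 104 and 112 CPM in WT-T, against 122, 93.5 and 108 CPM in WT-C (interaction 0.87, SE 0.26). Grin2b had 0.79 (SE 0.28), and Htt, the mouse huntingtin gene, 0.47 (SE 0.22).

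Nuclear-retained RNAs, taken as a sign of RNA quality, had the highest median of all lists, 0.64 over 7 tested, with 3 higher (all genes 6.33%) and 0 lower. The median was 0.36 without WT-C 3. The part of RNA quality in the values of the gene groups above was not tested. Malat1, an abundant nuclear RNA, had 466, 460 and 469 CPM in R6/2-T, against 350, 364 and 397 CPM in R6/2-C. It had 769, 629 and 566 CPM in WT-T, against 1001, 837 and 932 CPM in WT-C. Neither pair overlapped, the order was reversed, and the interaction was 0.82 (SE 0.17, edgeR adjusted p = 0.346, DESeq2 adjusted p = 0.00242). Over all genes, 179 (0.763%) were higher in R6/2-T and lower in WT-T without overlap. Kcnq1ot1, an imprinted antisense RNA and so uncertain without the strand setting, had 0.89 (SE 0.22), but −0.01 after offsets for GC content and length.

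Immune genes had the lowest medians, with libraries of 1 group far apart. Median interactions were −1.34 for 15 antigen presentation genes, −1.51 for 18 interferon-stimulated genes and −2.87 for 17 lymphocyte and granulocyte genes, of which 1, 3 and 5 were lower at an unadjusted p under 0.05, where 5.4% of all genes were, and edgeR called none. Without WT-T 1 these medians were −0.48 for antigen presentation, −1.07 for interferon-stimulated and −1.20 for lymphocyte and granulocyte genes. As single libraries were left out, the members lower ran from 0 to 2, from 1 to 13 and from 2 to 10 in these 3 lists. The number lower over all genes ran from 815 to 1667 across all alternative settings. Antigen presentation genes, which display peptides to T cells, summed to 442 to 968 CPM in R6/2-T, 1082 to 3548 in R6/2-C, 997 to 5114 in WT-T and 1660 to 5190 in WT-C. Interferon-stimulated genes summed to 274 to 714 CPM in R6/2-T, 603 to 2035 in R6/2-C, 899 to 2146 in WT-T and 937 to 2707 in WT-C. Lymphocyte and granulocyte genes summed to 24.4 to 44.3 CPM in R6/2-T, 49.0 to 142 in R6/2-C, 145 to 316 in WT-T and 154 to 268 in WT-C. Of the 17, 4 were at 0 in at least 1 library. Cd4 made up part of these sums, with 13.3 to 20.9 CPM in R6/2-T and 29.95 to 42.3 in R6/2-C. It had 83.1 to 112 CPM in WT-T and 101.5 to 107 in WT-C, closer together than the sums. Which cells held Cd4 was not tested. Cd74, the invariant chain of MHC class II, had 23.0, 79.4 and 62.9 CPM in R6/2-T, against 112, 240 and 614 CPM in R6/2-C. It had 1482, 312 and 181 CPM in WT-T, against 233.5, 999.5 and 1290.0 CPM in WT-C, and its interaction had an SE of 1.29. The interferon-induced GTPase gene Mx1 had −3.50 (SE 0.96) and Cd4 −0.98 (SE 0.25, DESeq2 adjusted p = 0.0461). Unlike Cd4, Cd8a was near 0 in R6/2-T, at 0.137 to 0.655 CPM, and Gzma was at 0 in 1 R6/2-T library. Whether these levels took part in the neuronal differences was not tested.

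Some genes differed the same way in both genotypes. Tm9sf4, an endomembrane protein gene, had 60.1, 56.8 and 63.1 CPM in R6/2-T, against 74.2, 73.8 and 75.6 CPM in R6/2-C. It had 49.4, 50.9 and 53.3 CPM in WT-T, against 77.3, 72.3 and 78.0 CPM in WT-C. It was lower with the shRNA without overlap in both genotypes, with an interaction of 0.26 (SE 0.10, 95% interval 0.03 to 0.48). Tusc3 (0.20, SE 0.14), Fam114a2 (0.17, SE 0.13) and Spcs3 (0.19, SE 0.12) were likewise lower without overlap in both, with intervals of −0.10 to 0.50, −0.10 to 0.45 and −0.08 to 0.47. Slc5a6, a vitamin transporter gene, was higher without overlap in both (−0.09, SE 0.17, interval −0.45 to 0.28). Of the genes that rose with the shRNA in R6/2, Otud4, a deubiquitinase gene, had 0.32 (SE 0.13), Cpeb4, a regulator of messenger RNA translation, 0.50 (SE 0.15), and Zfp955b 0.85 (SE 0.19). With offsets for GC content and length these were 0.16 for Otud4, 0.06 for Cpeb4 and 0.55 for Zfp955b.

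The authors' deposited table lists 626 neuron-enriched genes from R6/2-T against R6/2-C, 379 higher and 247 lower. Because it was drawn from the R6/2 libraries, only WT is independent of it. In WT, the 378 tested genes of the authors' deposited table listed as higher had a median shRNA change of 0.09, and 52 were higher and 5 lower at an unadjusted p under 0.05, against 3.38% and 3.07% of all genes. The 244 tested genes that the authors' deposited table lists as lower had a median of 0.07 in WT, and 9 were higher and 16 lower. EdgeR called Tsnax alone among them in WT (background 0.00426%), and none in the interaction. Over the whole list the WT median was 0.08. It was −0.0022 without WT-T 3 and 0.195 without WT-T 1.

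Leaving out R6/2-C 2 moved the number of called genes most. Without it, edgeR called 29 genes in the interaction, all higher, and 380 in fragments, with 26 of the 29 in both. In 28 of the 29, R6/2-C 2 was the R6/2-C library nearest to the R6/2-T mean. Picking genes by leaving that library out favours such a position, and the share over all genes was not computed. Akap9, a kinase anchor gene, is an example of this position, with 304, 297 and 300 CPM in R6/2-T, against 177, 311 and 164 CPM in R6/2-C. It had 235, 269 and 294 CPM in WT-T, against 338, 292 and 312 CPM in WT-C, and an interaction of 0.71 (SE 0.28) with all libraries. Among the 29 were Cbl (2.44), Phf3 (1.93), Lnpep (1.63), Epb41 (1.29), Vps13a (1.13), Slc5a3 (1.11), Wnk1 (0.89) and Rev3l (0.89). No immediate-early or medium spiny neuron gene was among them.

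The interaction followed the GC content of genes. Its median was 0.19 in the lowest of 5 equal bins of genes by GC content (17.1% to 45.1%) and −0.28 in the highest bin (56.0% to 75.7%). It came from both genotypes, with medians of 0.12 and −0.17 in R6/2 and −0.06 and 0.11 in WT. By transcript length it was −0.11 in the shortest and 0.13 in the longest of 5 bins. Within each library, the highest bin minus the lowest, as deviation from the mean of 12 libraries, was −0.42, −0.23 and −0.36 in R6/2-T, 0.10, −0.18 and −0.11 in R6/2-C, 0.13, 0.36 and 0.34 in WT-T and −0.03, 0.27 and 0.09 in WT-C. With offsets for GC content and length, the immediate-early median was −0.76 with 9 of 18 lower, the medium spiny neuron median −0.19 with 6 of 25 lower, the small RNA median 0.21 with 3 of 15 higher and the double-strand break repair median 0.12 with 2 of 20 higher. At an unadjusted p under 0.05 with these offsets, 956 of all 23453 genes were lower and 1006 higher. With the offsets Junb had −1.11, Adora2a −0.42, Slc5a3 0.67 and Phf3 1.66.

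**Figure D5:**
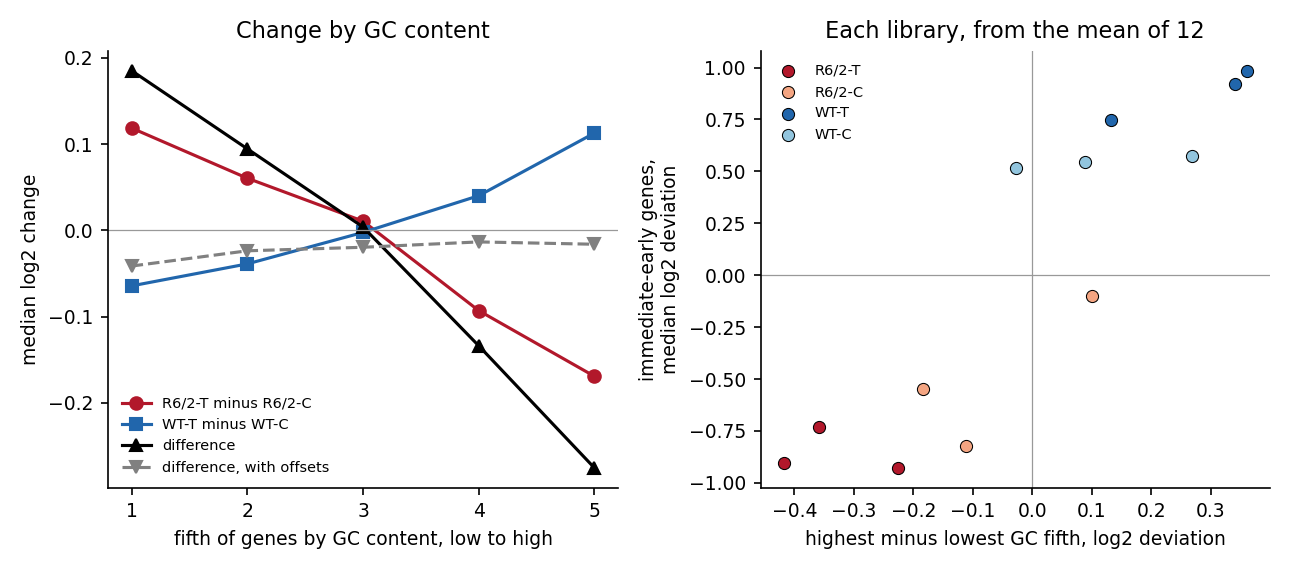
Left, median log2 change with the shRNA in R6/2 and in WT, and their difference, in 5 bins of genes by GC content, without and with offsets; right, for each library, the median deviation of immediate-early genes from the mean of 12 libraries against the highest minus the lowest GC bin. The difference runs from 0.19 to −0.28 and lies between −0.04 and −0.01 with offsets, and R6/2-T libraries lie at −0.42 to −0.23 on the right-hand horizontal axis where WT-T libraries lie at 0.13 to 0.36.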

How the data were processed

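RNA of striatum, 12 libraries in 4 groups of 3, was sequenced as stranded, ribosome-depleted total RNA, per the labels' protocols. The submitters' processing notes name bcl2fastq 2.20, HISAT2 and GRCm38. The sources used here do not say whether counting used the strand. The main values are the deposited StringTie estimated counts per gene, per the file headers, which are whole numbers that hold about 4.04 to 4.10 counts per fragment, so they overstate the depth. A second set in the deposited table holds fragment counts that the authors scaled to a common size, a signal of which 90.2 to 95.6% of values were whole multiples of 1 fragment within 0.05. The authors also deposited FPKM values, and a list of neuron-enriched genes with a log2 ratio, a p-value and a q-value, whose selection is not described. From that list only genes and directions were used. Another 12 columns of the table, which hold no sample values used here, were left out.

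Genes were kept by edgeR's filterByExpr and scaled by TMM. Contrasts of 4 group means were tested with edgeR 4.0.16 (quasi-likelihood F test, robust) in R 4.3.3, with Benjamini-Hochberg adjustment over all genes tested and a threshold of 0.05. Plain counts had been assumed when the test was chosen, and the same test was kept. CPM values are TMM-scaled. Alternatives were recovered fragments, RLE, other filters, DESeq2 1.42.0, limma 3.58.1 on counts and on log2(FPKM + 0.1), a replicate block, offsets for GC content and length (known for 99.58% of genes), and each library left out in turn. Fits on FPKM and further fits on fragments were added after seeing the data. Fragment CPM come from the recovered fragments. Promoter windows are RefSeq's. Analyses of tables and figures used Python 3.11.15.

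The members and gene lists were chosen with earlier results of these data known. Genes named by rule were 12 of prior interest, those called, the 12 with the smallest interaction p, the 8 with the smallest shRNA p in each genotype, the 6 most extreme in each direction in R6/2-C against WT-C, and 2 members of each of the 3 lists with the most positive and the 3 with the most negative medians. Other list members, and genes called without R6/2-C 2, were named after their values were seen.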

Additional observations from a re-analysis of the deposited data

Results flagged for a closer look

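Phf3 had a shRNA change that differed between the genotypes by a test of the difference itself, with an interaction of 1.79 in StringTie counts (edgeR adjusted p = 0.0302). Its adjusted p lay between 3.8e-13 with DESeq2 and 0.276 with a replicate block. In recovered fragments the interaction was 0.43, and the number of StringTie counts per fragment differed between R6/2-T and the other libraries.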

How the results depend on the processing

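The number of genes called in the interaction was 1 in the edgeR test on StringTie counts, 190 with DESeq2, 2 with no filter on low counts, and 0 in fragments, in fragments with offsets for GC content and length, and with limma on FPKM. Leaving out single libraries gave 0 to 29, and 0 to 380 in fragments. For the shRNA in R6/2 the number was 16, against 1741 with DESeq2, 507 in fragments, 248 with a filter at a mean log2 CPM of at least 1, 56 with the offsets, 49 with limma-voom, 7 with the 2 R6/2 groups alone and 3 with limma on FPKM, and 2 to 1197 with single libraries left out, the highest without R6/2-C 2. Without WT-T 1 it was 318. For WT the number was 1, against 116 with DESeq2, 7 with the offsets, 4 in fragments, 4 with limma on FPKM, 3 with the stricter filter and 2 with no filter, and 1 to 11 with single libraries left out, the highest without WT-T 1. The number of immediate-early genes lower in the interaction at an unadjusted p under 0.05 was 7 to 13 of 18 with single libraries left out. The number lower over all genes ran from 815 to 1667 across all alternative settings. The causes were not tested.

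Replicate numbers are shared by the groups, but only 9 of 18 same-numbered pairs of libraries had a correlation of deviations over 0.1. The values ran from −0.45 (WT-T 3 and WT-C 3) to 0.36 (R6/2-T 1 and WT-C 1), so the numbers were not taken as pairs. With a replicate block the interaction called 0 genes, also in fragments and with the offsets, and the shRNA in R6/2 called 4 genes, also 4 with the offsets.

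Of the settings for single genes, 20 reversed the sign, each with an adjusted p far from the threshold. With the offsets Disc1 had 0.013, Spcs3 −0.159 (−0.151 with the block), Mafa 0.297 (0.3 with the block) and Kcnq1ot1 −0.010. In fragments Pde10a had −0.020, Mocs1 −0.221, Mafa 0.094, Mccc1os 0.058 and Lrrtm4 0.087. With single libraries left out, the values ran from −0.438 to 0.126 for Penk, −0.113 to 0.773 for Pde10a, −0.208 to 0.030 for Slc5a6, −0.590 to 0.025 for Abhd11os, −0.212 to 0.019 for Mafa and −0.076 to 0.809 for Wt1.

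With 3 libraries a group, the interaction carries the spread of 4 groups, and a gene that was not called is not shown to respond alike in both genotypes.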

Other observations

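Interneuron genes had 4 of 12 members lower and 1 higher in the interaction at an unadjusted p under 0.05, with a median of −0.10. The p53 target genes had 4 of 20 lower and 0 higher, with a median of −0.35. With offsets for GC content and length, 1 interneuron gene and 1 p53 target gene were lower. Over all genes, without offsets, 5.4% were lower and 6.33% higher, and with offsets 956 of 23453 were lower. The higher interneuron gene was Nos1, with 1.31 in StringTie counts and 0.09 in fragments. Genes of cAMP and adenosine signalling had 3 of 25 lower and 0 higher, with a median of 0.05. Microglial genes had 2 of 16 lower, disease-associated microglial genes 1 of 18, and reactive glia and complement genes 4 of 17, with medians of −0.48, −0.71 and −0.60 that lay between −1.03 and −0.12 as single libraries were left out.

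Astrocyte, myelin and mitochondrially encoded genes had medians of 0.10, 0.08 and 0.08. At an unadjusted p under 0.05, 1, 0 and 0 of their members were higher and 0 lower, where 6.33% and 5.4% of all genes were. Protein folding genes had 3 of 24 lower (median −0.10), cholesterol synthesis genes 1 of 22 lower (median −0.02) and GABA transmission genes 2 of 15 higher (median 0.06). EdgeR called no member of these lists.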
